A study of Homo sapiens with 12 samples.

Results

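Purine nucleotides are made and recovered by 10 enzyme genes that are described here across treated and control spheroids of SBC3, an established human small cell lung cancer line. The genes are PPAT, GART, PFAS, PAICS, ADSL and ATIC, which build inosine monophosphate (IMP), IMPDH1, IMPDH2 and GMPS, which turn IMP into guanosine monophosphate (GMP), and HPRT1, which recovers purine bases. They were taken by symbol from the 60649 genes in each count table, as a list chosen with earlier results of these data known. The shares of all genes given beside them are therefore descriptions. All 10 passed the filter on low counts that left 16683 genes to test. RNA was sequenced from 12 libraries in 4 groups of 3, which were controls, spheroids given teriflunomide, spheroids given lurbinectedin, and spheroids given the combination of both. All groups are the same cell line grown as spheroids, with no genetic change named in the labels. The doses, exposure times and vehicle are not given in the sources used here, nor whether the 3 libraries of a group came from separate cultures. The p-values below therefore measure the spread between these libraries, which may be technical.

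Cells make purines by assembling the ring on phosphoribosyl pyrophosphate (PRPP), using glutamine, glycine, carbon dioxide, aspartate and formyl groups carried by folate, until IMP is reached. IMP is then converted either to AMP, through adenylosuccinate, or to GMP, through xanthosine monophosphate (XMP). Salvage enzymes such as HPRT1 reattach free bases to PRPP. Teriflunomide inhibits DHODH, an enzyme of pyrimidine synthesis and not of purine synthesis, and lurbinectedin binds DNA and blocks transcription.

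Total counts per library ranged from 23206414 to 33222162. Values are in CPM, counts relative to the scaled library size. They are shares of each library's RNA, so fewer cells of a type and less RNA per cell cannot be told apart. Replicate 3 of the teriflunomide group and replicate 2 of the combination stood apart, with 22.6% and 24.9% of their counts on mitochondrially encoded genes, against 8.42% and 8.43% in the other teriflunomide libraries, 6.26% to 7.17% in control, 13.8% to 17.0% with lurbinectedin, and 14.6% and 13.1% in the other combination libraries. Of the 7 small cell lung cancer subtype and neuroendocrine markers used, 4 (POU2F3, INSM1, CHGA and NCAM1) were under 1 CPM in every library, while YAP1 ranged from 60.2 to 343 CPM, SYP from 14.1 to 36.2 CPM and NEUROD1 from 1.5 to 6.51 CPM. The summed level of these 7 genes was 257 to 281 CPM in control, 299.99 to 364 CPM with teriflunomide, 94.5 to 104 CPM with lurbinectedin and 114 to 163 CPM with both. Most of that sum was YAP1, which went from 246 ± 12 CPM in control to 64.9 ± 6.4 CPM with lurbinectedin (SD, n = 3), while SYP went from 16.8 ± 0.76 to 30.9 ± 1.4 CPM. Of the 4 of these markers that were tested, 2 were called higher and 2 lower with lurbinectedin. Of the 4 epithelial markers, EPCAM, KRT18 and CDH1 were under 1 CPM in every library and KRT8 was not, and their sum was 236 to 252 CPM, 196 to 307 CPM, 400.1 to 433 CPM and 373 to 444 CPM in the same order. Of the 4 fibroblast markers, DCN and PDGFRA were under 1 CPM in every library and COL1A1 and COL1A2 were not, and their sum was 519 to 549 CPM, 465 to 484 CPM, 186 to 220.3 CPM and 198 to 227 CPM. All 3 leukocyte and both endothelial markers were under 1 CPM throughout. The part of these shifts in the results below was not tested.

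PPAT and PAICS, which act at the start and in the middle of IMP synthesis, lie head to head on chromosome 4, with start sites 126 bases apart in the coordinates of the count tables. With lurbinectedin PPAT was called higher and PAICS lower, though each call was lost under some alternatives given below. The interval between them is shown because the 2 genes share it and differed in this way. It spans chr4:56435616-56435740 of GRCh38.p14 and is printed on the plus strand, so that PAICS starts just after its right end and PPAT just before its left end, reading leftward. It held 15 CpG dinucleotides and 76% G and C, and none of the motifs searched, so no letter is in capitals.
PPAT-PAICS interval: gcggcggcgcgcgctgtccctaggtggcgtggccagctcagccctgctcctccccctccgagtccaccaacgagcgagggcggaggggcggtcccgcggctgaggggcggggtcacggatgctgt

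Sequences came from a RefSeq table of promoters, 250 bases before to 50 bases after each start site, in which 8 of the 10 genes had an entry and ADSL and IMPDH2 did not. Both strands were searched for CACGTG (the E-box), CCGGAA (the ETS core) and CCAAT (the CCAAT box), which do not overlap each other in the windows printed. Of 35116 promoter windows, 7.26% held CACGTG, 17.2% held CCGGAA and 34.6% held CCAAT. Among these enzymes, CACGTG was found in the windows of ATIC, PPAT and PAICS, and the last pair share the same copy. The ATIC window held 2 copies of CACGTG and 1 of CCGGAA. The windows of GART held up to 3 copies of CCAAT, and that of its start site farthest into the gene held 1 of CCGGAA, and those of GMPS, IMPDH1, PFAS and HPRT1 held none of the 3 motifs. The 30-base sites below show these matches in capitals on the plus strand, at chr2:215312001-215312030 for ATIC, chr4:56435772-56435801 for PAICS and chr21:33542975-33543004 for GART, which lies head to head with SON. A match is a string of letters and shows no binding.
ATIC site: gggccggcgggcCACGTGataagcCCGGAA
PAICS site: ctggaaagctgtatttgctgCACGTGgaaa
GART site: ttccctttggagCCAATcaggaaggcgaga

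Lurbinectedin moved the 10 genes in different directions. IMPDH1, IMPDH2, ADSL and PPAT rose, PFAS, GMPS, HPRT1, PAICS and ATIC fell, and GART did not pass the test. That is 4 called higher and 5 called lower of 10, where 36% and 35.7% of all genes tested were called higher and lower (edgeR quasi-likelihood test, Benjamini-Hochberg adjusted p under 0.05). The 9 genes called in either direction stand beside 71.6% of all genes. Every library of the treated group was above every control library for the 4 genes called higher (42.4% of all genes) and below for the 5 called lower (40.8%). The median log2 fold change of the 10 was -0.16, and that of all genes was 0.05. Scaling by library size alone shifted the median of all genes to -0.18. It left 39.2% of the calls on the higher side instead of 50.2%, and ended the call of PPAT.

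**Figure D1:**
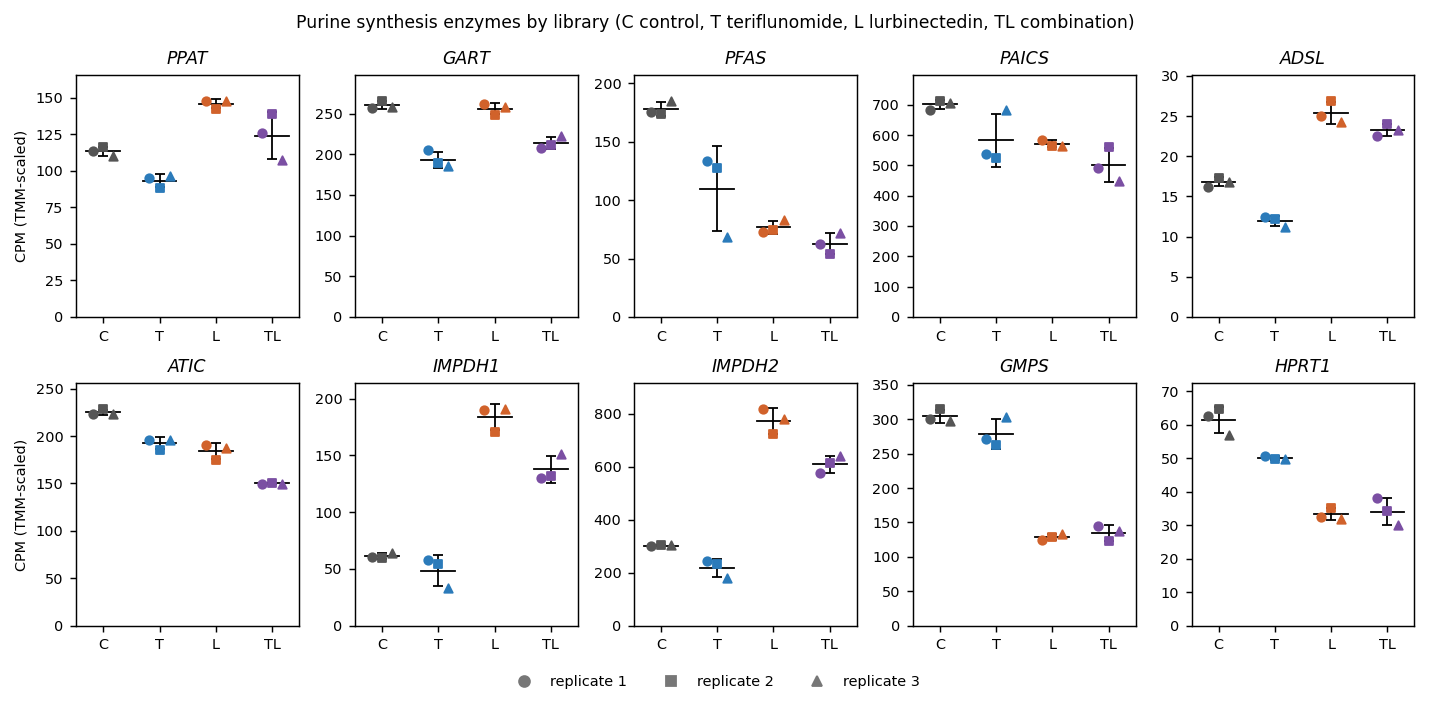
Scaled CPM of each of the 10 genes in the 12 libraries (y axes from 0, symbols by replicate, horizontal line and bar for the mean and SD of 3 libraries). IMPDH1 and IMPDH2 stand highest with lurbinectedin, GMPS and HPRT1 are low in both groups with lurbinectedin, and teriflunomide replicate 3 lies away from the other 2 in PFAS, PAICS, IMPDH1 and IMPDH2.

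PPAT (ENSG00000128059.8, chromosome 4, 56393362 to 56435615, minus strand) encodes the amidotransferase that commits PRPP to purine synthesis. Its level was 113, 117 and 110.5 CPM in control and 95.2, 88.3 and 96.6 CPM with teriflunomide. Lurbinectedin libraries stood at 148, 142 and 148 CPM and combination libraries at 126, 139 and 107 CPM. All 3 lurbinectedin libraries were above, and all 3 teriflunomide libraries below, every control library, while the combination libraries spanned the control range. PPAT rose by 0.37 ± 0.10 (SE) on the log2 scale with lurbinectedin (edgeR adjusted p = 0.00483), a call lost without an expression filter (0.29, adjusted p = 0.0777) and with library size alone (0.13, adjusted p = 0.272). With the combination its log2 fold change was 0.13 (edgeR adjusted p = 0.265), which was called only without combination replicate 3 (0.22, adjusted p = 0.0449).

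GART (ENSG00000159131.17, chromosome 21, 33503931 to 33543491, minus strand) is a trifunctional enzyme that carries the glycine addition and a folate-dependent formyl transfer. Control libraries stood at 257, 266 and 258 CPM and lurbinectedin libraries at 262, 249 and 258 CPM, so that the groups overlapped. The log2 difference was -0.024 with a 95% interval of -0.20 to 0.15 (edgeR adjusted p = 0.799). With teriflunomide the 3 values were 205, 189.9 and 186 CPM, and with the combination 208, 212 and 223 CPM, all below every library of the control and lurbinectedin groups. SON, a splicing factor gene that starts 453 bases away on the other strand in the count tables, had a log2 fold change of 0.57 with lurbinectedin (edgeR adjusted p = 0.000296).

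PFAS (ENSG00000178921.14, chromosome 17, 8247618 to 8270491, plus strand) encodes the glutamine-using amidotransferase that follows. It fell from 175, 174 and 185 CPM in control to 73.0, 74.3 and 83.3 CPM with lurbinectedin and 62.4, 53.9 and 72.1 CPM with the combination. No treated library overlapped the control range, and the falls were 1.21 ± 0.20 and 1.5 ± 0.20 on the log2 scale (SE, edgeR adjusted p = 8.37e-05 and 1.37e-05). CTC1, a telomere maintenance gene whose start lies 438 bases away on the opposite strand, had log2 fold changes of 1.77 and 1.43 in the same comparisons (edgeR adjusted p = 2.27e-07 and 2.25e-06).

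PAICS (ENSG00000128050.9, chromosome 4, 56435741 to 56464578, plus strand), a bifunctional carboxylase and aspartate-adding synthetase, was the member with the most counts in control. It was at 683, 714 and 706 CPM in control, 584, 565 and 565 CPM with lurbinectedin, and 492, 561 and 449.6 CPM with the combination. Neither treated group overlapped control. The falls were 0.30 ± 0.11 and 0.49 ± 0.11 on the log2 scale (SE, edgeR adjusted p = 0.0294 and 0.00162). The call with lurbinectedin was lost without control replicate 2 (adjusted p = 0.0743), control replicate 3 (0.0668), lurbinectedin replicate 2 (0.0625) or lurbinectedin replicate 3 (0.0681), and with a filter at 1 CPM (0.0588).

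ADSL (ENSG00000239900.14, chromosome 22, 40346461 to 40390463, plus strand) encodes the lyase that acts both in IMP synthesis and on the way to AMP. It rose from 16.2, 17.4 and 16.8 CPM in control to 25, 26.9 and 24.2 CPM with lurbinectedin and 22.6, 24 and 23.3 CPM with the combination, with no overlap. The rises were 0.59 ± 0.10 and 0.47 ± 0.10 on the log2 scale (SE, edgeR adjusted p = 0.000148 and 0.00113), the latter lost with library size alone (0.30, adjusted p = 0.0990). ADSL is uncertain, because an overlapping gene on the same strand, ENSG00000284431, shares 82.5% of the exon bases of the transcript ADSL-201, 77.0% of ADSL-220, 64.1% of ADSL-202, 30.6% of ADSL-208 and 11.1% of all exon bases of the gene. How reads that fit both were counted is not given in the sources used here.

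ATIC (ENSG00000138363.15, chromosome 2, 215311956 to 215349773, plus strand) is the bifunctional enzyme that completes IMP. It went from 224, 228 and 223 CPM in control to 190.3, 175 and 187 CPM with lurbinectedin and to 149.5, 151 and 149.9 CPM with the combination. The 3 groups did not overlap, and the falls against control were 0.29 ± 0.08 and 0.59 ± 0.08 on the log2 scale (SE, edgeR adjusted p = 0.00461 and 1.55e-05).

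**Figure D2:**
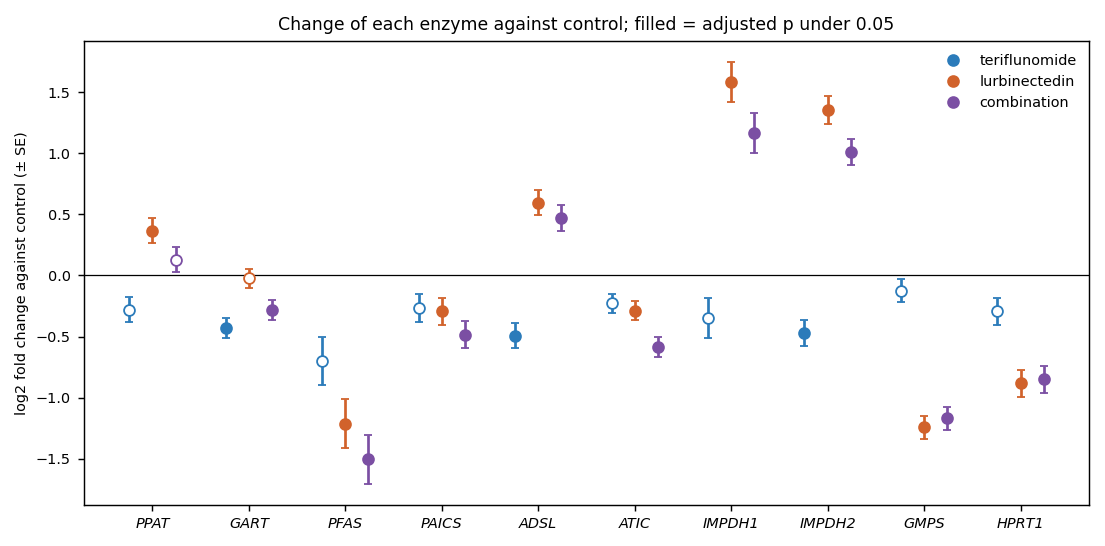
Log2 fold change against control (y axis, points with SE bars) of each gene with teriflunomide, lurbinectedin and the combination; filled points have an adjusted p under 0.05. All 10 teriflunomide points lie below 0 and 3 are filled, whereas IMPDH1 and IMPDH2 rose and GMPS and PFAS fell by more than 1 with lurbinectedin and the combination.

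The 2 IMP dehydrogenases catalyse the same reaction, IMP to XMP, the entry to guanine nucleotides. IMPDH2 (ENSG00000178035.13, chromosome 3, 49024325 to 49029447, minus strand) is the form known to be raised in proliferating cells. It was at 302, 303 and 303 CPM in control, 818, 723 and 781 CPM with lurbinectedin, and 575, 614 and 640.2 CPM with the combination. The lowest combination library was above every control library, and the highest was below every lurbinectedin library. The rises against control were 1.35 ± 0.11 and 1.01 ± 0.11 on the log2 scale (SE), or 2.55-fold and 2.01-fold (edgeR adjusted p = 9.48e-08 and 2.08e-06).

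IMPDH1 (ENSG00000106348.18, chromosome 7, 128392277 to 128410252, minus strand), the other form, showed the same order of groups from a lower level. It rose from 60.3, 59.9 and 64.1 CPM in control to 189.9, 171 and 191 CPM with lurbinectedin and 129.9, 132 and 152 CPM with the combination, with no overlap between any 2 of these groups. The log2 rises were 1.58 ± 0.17 and 1.17 ± 0.16 (SE), or 2.99-fold and 2.24-fold (edgeR adjusted p = 1.15e-06 and 2.42e-05). IMPDH1 has 10 annotated pseudogenes in the tables, which held 0.769% as many counts as the gene over all libraries.

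GMPS (ENSG00000163655.16, chromosome 3, 155870650 to 155944020, plus strand), which aminates XMP to GMP directly after the dehydrogenases, moved the other way. Its libraries were at 299.6, 314 and 298 CPM in control, 124, 128 and 133 CPM with lurbinectedin, and 145, 123 and 138 CPM with the combination. GMPS fell by 1.24 ± 0.09 and 1.17 ± 0.09 on the log2 scale (SE, edgeR adjusted p = 4.03e-08 and 9.11e-08). The combination and lurbinectedin ranges overlapped, with a log2 difference of 0.073 and a 95% interval of -0.13 to 0.27 (edgeR adjusted p = 0.728).

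HPRT1 (ENSG00000165704.15, chromosome X, 134460165 to 134520513, plus strand) recovers hypoxanthine and guanine as IMP and GMP. It fell from 62.5, 64.7 and 57.0 CPM in control to 32.6, 35.3 and 31.9 CPM with lurbinectedin and 38.0, 34.2 and 29.9 CPM with the combination. No treated library reached the lowest control value. The falls were 0.88 ± 0.11 and 0.85 ± 0.11 on the log2 scale (SE, edgeR adjusted p = 6.03e-06 and 1.00e-05). The combination did not differ detectably from lurbinectedin (log2 difference 0.033, 95% interval -0.20 to 0.27, edgeR adjusted p = 0.906).

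With the combination as with lurbinectedin, 9 of the 10 genes were called against control, and these comparisons share the control libraries. IMPDH1, IMPDH2 and ADSL were called higher (34.1% of all genes tested), and PFAS, GMPS, HPRT1, ATIC, PAICS and GART were called lower (34.4%), with 68.4% of all genes called either way. The groups did not overlap for any of these 3 (38.7% of all genes higher) or 6 (38.5% lower). GART fell by 0.28 ± 0.08 on the log2 scale (SE, edgeR adjusted p = 0.0064). The median over the 10 genes was -0.38, against 0.04 over all genes.

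With teriflunomide alone the differences all had the same direction. All 10 genes had a log2 fold change below 0 against control, where 46.2% of all genes did, and their median was -0.32 against 0.03 over all genes. GART, ADSL and IMPDH2 fell, which is 3 of 10 called lower beside 2.13% of all genes called lower, 3.88% called higher and 6.01% called either way. For 8 genes every teriflunomide library was below every control library (16.7% of all genes); PAICS and GMPS were the exceptions.

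GART fell by 0.43 ± 0.08 on the log2 scale with teriflunomide (SE, edgeR adjusted p = 0.00878). ADSL went to 12.5, 12.1 and 11.2 CPM, a fall of 0.49 ± 0.10 (SE, edgeR adjusted p = 0.0169). IMPDH2 went to 243, 233 and 179.9 CPM, a fall of 0.47 ± 0.11 (SE, edgeR adjusted p = 0.0249). None of these 3 calls was stable to the choice of control libraries. GART lost its call without control replicate 2 or 3 (adjusted p = 0.0592 and 0.0533), and ADSL and IMPDH2 lost theirs without any of the 3 controls (adjusted p from 0.0666 to 0.0921 and from 0.0977 to 0.106). All 3 also lost it with library size alone (adjusted p = 0.0744, 0.0825 and 0.126), where PAICS was the 1 enzyme called (-0.37, edgeR adjusted p = 0.0340).

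The other 7 genes did not pass the test with teriflunomide, though DESeq2 called PFAS, PPAT, ATIC and HPRT1 lower as well. PFAS came closest with 134, 128 and 68.0 CPM and a fitted difference of -0.70 ± 0.20 on the log2 scale (SE, edgeR adjusted p = 0.0519), and passed without teriflunomide replicate 1 (-0.86, adjusted p = 0.0297) and without an expression filter (-0.71, adjusted p = 2.15e-05). ATIC was at 196, 185 and 196 CPM and HPRT1 at 50.8, 49.8 and 49.7 CPM, with log2 fold changes of -0.23 and -0.29 (edgeR adjusted p = 0.1 and 0.12). PPAT had -0.28 (adjusted p = 0.110), PAICS -0.27 (0.160), IMPDH1 -0.34 (0.209) and GMPS -0.13 (0.416).

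Teriflunomide replicate 3, the library with the high mitochondrial share, lay away from the other 2 for several genes. It held 0.520 of the mean of replicates 1 and 2 for PFAS, 0.586 for IMPDH1 and 0.757 for IMPDH2, but 1.29 for PAICS, where it was at 684 CPM beside 537 and 526 CPM. Without it, 6 enzymes were called lower: GART, ADSL, IMPDH2, PFAS, PAICS and ATIC. The log2 fold change was then -0.45 for PFAS, -0.40 for PAICS and -0.13 for IMPDH1, and 1555 genes of 17072 tested were called. Without combination replicate 2 as well, 9 of the enzymes were called, among 2757 genes of 16945 tested. IMPDH1 was the exception.

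No gene of the 16683 tested was called between the combination and lurbinectedin alone with edgeR (0%), while 2599 had an unadjusted p under 0.05. DESeq2 called 558 genes. It gave 35575 genes a p-value, but its default filter can leave genes with low counts without an adjusted p. In this comparison 8 of the 10 enzyme genes had a log2 difference below 0 (46.7% of all genes). The same 8 had every combination library below every lurbinectedin library, where 12.6% of all genes did. GMPS and HPRT1 were the other two. The differences were -0.42 for IMPDH1 (edgeR adjusted p = 0.254), -0.34 for IMPDH2 (0.190), -0.30 for ATIC (0.151), -0.29 for PFAS (0.495), -0.26 for GART (0.184), -0.24 for PPAT (0.289), -0.19 for PAICS (0.428) and -0.12 for ADSL (0.584). Their 95% intervals stayed below 0 for IMPDH1, IMPDH2, ATIC, GART and PPAT before adjustment over all genes. DESeq2 called ATIC and GART (adjusted p = 0.00401 and 0.0281). Without teriflunomide replicate 3, a library of neither group compared, edgeR called ATIC, GART, IMPDH1 and IMPDH2 (adjusted p = 0.0114, 0.0216, 0.00535 and 0.0078), among 2067 genes of 17072 tested.

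Against teriflunomide alone, the combination had IMPDH1, IMPDH2, ADSL and PPAT higher and GMPS, PFAS, HPRT1 and ATIC lower, which is 4 and 4 of 10 beside 35.2% and 35.8% of all genes and 70.9% called either way. The largest of these differences were 1.51 ± 0.17 for IMPDH1 and 1.48 ± 0.11 for IMPDH2 on the log2 scale (SE, edgeR adjusted p = 2.04e-06 and 4.71e-08). PAICS (-0.22) and GART (0.15) did not pass the test (edgeR adjusted p = 0.0971 and 0.119). PAICS passed it without teriflunomide replicate 2 (-0.30, adjusted p = 0.0458) or combination replicate 2 (-0.30, adjusted p = 0.0287), and with library size alone (-0.30, adjusted p = 0.00358). GART passed it with a filter at 1 CPM (0.20, edgeR adjusted p = 0.0345).

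The interaction asks whether the effect of teriflunomide differed in the presence of lurbinectedin. It was called for none of the 10 genes with edgeR, beside 0.258% of all genes tested, of which 6 were higher and 37 lower (2 and 4 with library size alone). ADSL had the smallest p, at 0.0257 before adjustment (0.37, adjusted p = 0.404), and was the only member under 0.05 unadjusted. DESeq2 called none of the 10 either. The 95% intervals were wide for PFAS (-0.19 to 1.002) and IMPDH1 (-0.57 to 0.42). Without teriflunomide replicate 3 and combination replicate 2, GMPS was called (0.33, adjusted p = 0.0244), among 1839 genes of 16945 tested.

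Set per kilobase of exon, the genes could be ordered within a group. In control PAICS was highest, at 93.3 ± 2.13 CPM per kb (SD, n = 3), followed by ATIC at 59.4 ± 0.722 and IMPDH2 at 59.1 ± 0.0788, whose libraries overlapped. HPRT1 (38.1), GMPS (34.7) and GART (33.6) came next, each overlapping its neighbour, then PFAS (27.5), PPAT (20.9), IMPDH1 (16.8) and ADSL (1.39) without overlap. With lurbinectedin IMPDH2 was highest, at 151 ± 9.31 CPM per kb, PAICS was at 76.0 ± 1.47, IMPDH1 had moved to 50.2 ± 3.06 beside ATIC at 48.6 ± 2.13, and GMPS (14.7) and PFAS (11.9) stood above ADSL alone (2.10). IMPDH2 was highest and PAICS next with the combination too, at 119 ± 6.38 and 66.6 ± 7.47 CPM per kb.

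The order depends on the length used. The exons of IMPDH2 in the tables cover its whole span of 5.123 kb, and those of ADSL cover 12109 bases. Both levels per kb of exon therefore tend to be understated for the mature messages. Reads of unspliced IMPDH2 RNA would also enter its count. Their part in its levels and in its rise was not tested. At either length ADSL stays uncertain, because reads in the exons it shares with an overlapping gene may be missing from its count. This holds for its rank and for its part in the sum below. Set per kilobase of the median coding transcript of GENCODE 29, control levels were 209.9 for PAICS, 184 for IMPDH2, 100.3 for ATIC and 9.49 for ADSL. IMPDH2 was again highest with lurbinectedin, at 471 CPM per kb of transcript, with PAICS at 171.

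Levels were also summed by step, and ratios were formed, per kb of exon only. The size of these sums and ratios depends on the length used, as the order does. The 6 IMP-building genes together had 236 ± 3.53 CPM per kb of exon in control and 188 ± 7.78 with teriflunomide (SD, n = 3). Lurbinectedin gave 199 ± 4.63 and the combination 168 ± 8.51 CPM per kb. IMPDH1 and IMPDH2 together had 75.9 ± 0.667, 55.9 ± 10.3, 201 ± 12.2 and 157 ± 9.33 CPM per kb in the same order of groups. The ratio of both dehydrogenases to GMPS was 2.21, 2.11 and 2.26 in control and 2.05, 2.02 and 1.27 in the teriflunomide group. The lurbinectedin libraries had 14.9, 12.8 and 13.4 and the combination libraries 8.91, 11.1 and 10.6. It was 6.26-fold higher than control with lurbinectedin and 4.64-fold higher with the combination. This ratio was chosen after the values were seen and has no test.

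The ratio of IMPDH2 to IMPDH1 per kb changed little by comparison. It was 3.53 ± 0.128 in control and 3.32 ± 0.509 with teriflunomide (SD, n = 3). Lurbinectedin libraries had 3.01 ± 0.0759 and combination libraries 3.17 ± 0.153. Every lurbinectedin and every combination library was below every control library, with log2 differences of -0.23 and -0.15. For both, the exact two-sided permutation p was 0.1, the smallest that 3 against 3 libraries can give, and 0.25 after Benjamini-Hochberg adjustment over 5 comparisons. The other 3 comparisons had exact permutation p of 0.3 to 0.9. In the teriflunomide group replicate 3 was at 3.91 and the others at 3.01 and 3.05.

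PAICS and PPAT, the head-to-head pair, changed their ratio in both groups with lurbinectedin. PAICS per kb was 4.36, 4.43 and 4.62 times PPAT in control and 4.09, 4.31 and 5.12 times with teriflunomide. With lurbinectedin it was 2.86, 2.87 and 2.76 times, and with the combination 2.83, 2.92 and 3.03 times, with no overlap with the other 2 groups. This ratio was also chosen after the values were seen and has no test.

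**Figure D3:**
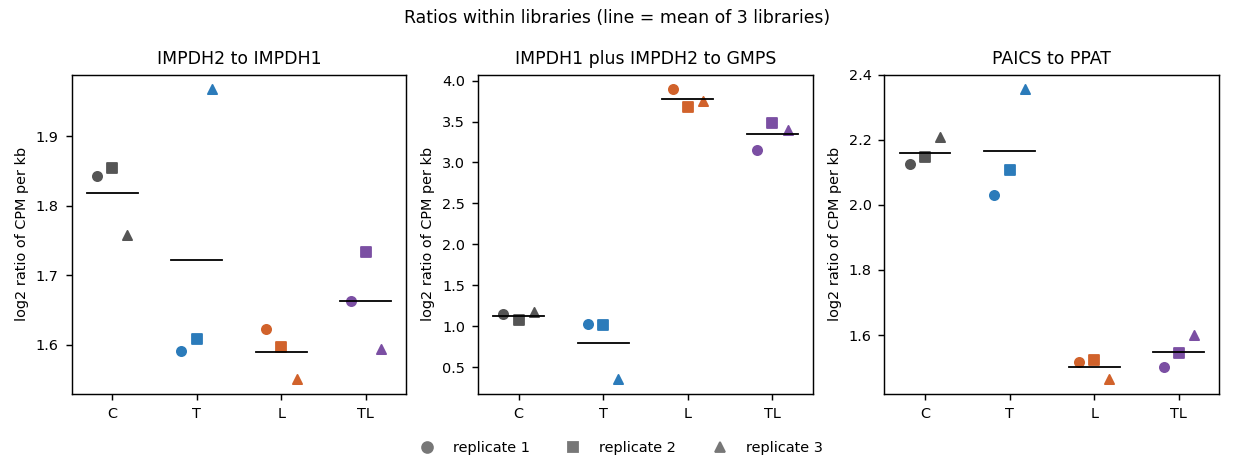
Log2 ratios of CPM per kb within each library for IMPDH2 to IMPDH1, both dehydrogenases to GMPS, and PAICS to PPAT (x axis: control C, teriflunomide T, lurbinectedin L, combination TL; line, mean of 3 libraries; each panel has its own scale). The ratio to GMPS separates the lurbinectedin groups, at 8.91 and above, from the others, at 2.26 and below before the log2 scale.

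The pathway around these enzymes was described with 7 further lists of 54 genes, of which 44 were tested. With lurbinectedin 13 were called higher and 21 lower, with the combination 8 and 19, with teriflunomide 1 and 2, and between combination and lurbinectedin none, against the shares of all genes given above. The median log2 fold change of the 44 genes was -0.31 with lurbinectedin and -0.069 with teriflunomide. Across the genome, genes of long genomic span fell with lurbinectedin more than short ones, as described below. Genes of these 7 lists were not set beside genes of like span, and the part of span in their changes was not tested.

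PRPP supply feeds both PPAT and HPRT1. With lurbinectedin PRPSAP2 (-0.69) and PRPS2 (-0.53) fell and PRPS1 (0.34) rose, of 4 genes tested, the last call being lost with library size alone (0.11, edgeR adjusted p = 0.498) and without an expression filter (0.27, adjusted p = 0.136). Folate enzymes, which supply the formyl groups used by GART and ATIC, had 2 genes called higher and 6 lower of 10. Of all genes, 36% were called higher and 35.7% lower. The 3 with the largest change all fell. They were MTHFD1L, the mitochondrial formate-releasing enzyme (-2.35), MTHFD2L (-1.46) and MTHFD1, the cytosolic trifunctional enzyme (-1.30). MTHFD2 went the other way, from 188 ± 3.0 CPM in control to 378 ± 3.6 CPM with lurbinectedin (SD, n = 3). MTHFD1 went from 287 ± 6.8 CPM in control to 117 ± 16 CPM with lurbinectedin (SD, n = 3).

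Among genes that interconvert AMP and GMP through IMP, GMPR, which returns GMP to IMP, fell by 1.70 on the log2 scale with lurbinectedin. AMPD2, an AMP deaminase, rose by 0.64, a call lost with library size alone (0.41, edgeR adjusted p = 0.153). GMPR2 fell by 0.31 (edgeR adjusted p = 0.0478), a call lost without control replicate 1 or 3, teriflunomide replicate 1 or 2, or lurbinectedin replicate 2 or 3 (adjusted p from 0.0523 to 0.148), and with a filter at 1 CPM (adjusted p = 0.0762). In salvage, ADK, which phosphorylates adenosine, went from 28.6 ± 1.2 CPM to 2.15 ± 0.12 CPM (SD, n = 3), a fall of 3.73 on the log2 scale. MTAP fell by 1.27. APRT, the adenine counterpart of HPRT1, rose by 0.89 (edgeR adjusted p = 0.0334). That call was lost without any 1 of the controls, of the lurbinectedin libraries, or combination replicate 1 (adjusted p from 0.0505 to 0.0962), with DESeq2 (adjusted p = 0.0951), and with library size alone (0.66, adjusted p = 0.187).

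All 8 tested genes of the list of nucleotidases and degradation enzymes were called with lurbinectedin, 2 higher and 6 lower. Of all genes, 71.6% were called, 36% higher and 35.7% lower. PNP, which releases hypoxanthine and guanine from nucleosides, went from 48.5 ± 0.82 to 193 ± 15 CPM (SD, n = 3), a rise of 1.99 on the log2 scale. The nucleotidases NT5C1A and NT5E fell by 3.01 and 2.41, the latter from under 1 CPM. Of the nucleotide kinases 4 were called higher and 2 lower. NME2 (2.21) and AK1 (2.14) rose, and both are uncertain because 24.2% and 34.5% of their exon bases lie in another gene on the same strand. AK5 fell by 1.70. The nucleoside transporters SLC29A1 (1.18) and SLC29A3 (0.99) rose and SLC29A4 (-0.76) fell. SLC29A3 is uncertain too, because 13.3% of its exon bases lie in another gene on the same strand.

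With teriflunomide 3 of the 44 genes were called, beside 6.01% of all genes. AK5 rose by 1.04 ± 0.26 on the log2 scale (SE, edgeR adjusted p = 0.0329), and PRPS2 and MTHFD1L fell by 0.42 and 0.55 (edgeR adjusted p = 0.0437 and 0.0186). Each of the 3 lost its call without any 1 of the controls. AK5 also lost it without lurbinectedin replicate 3, and PRPS2 without teriflunomide replicate 1 or 2 or any 1 of the lurbinectedin libraries. With library size alone all 3 lost it (adjusted p = 0.0889 for AK5 and PRPS2 and 0.122 for MTHFD1L), and with only the 2 groups fitted AK5 and PRPS2 did (0.0902 and 0.05003).

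**Figure D4:**
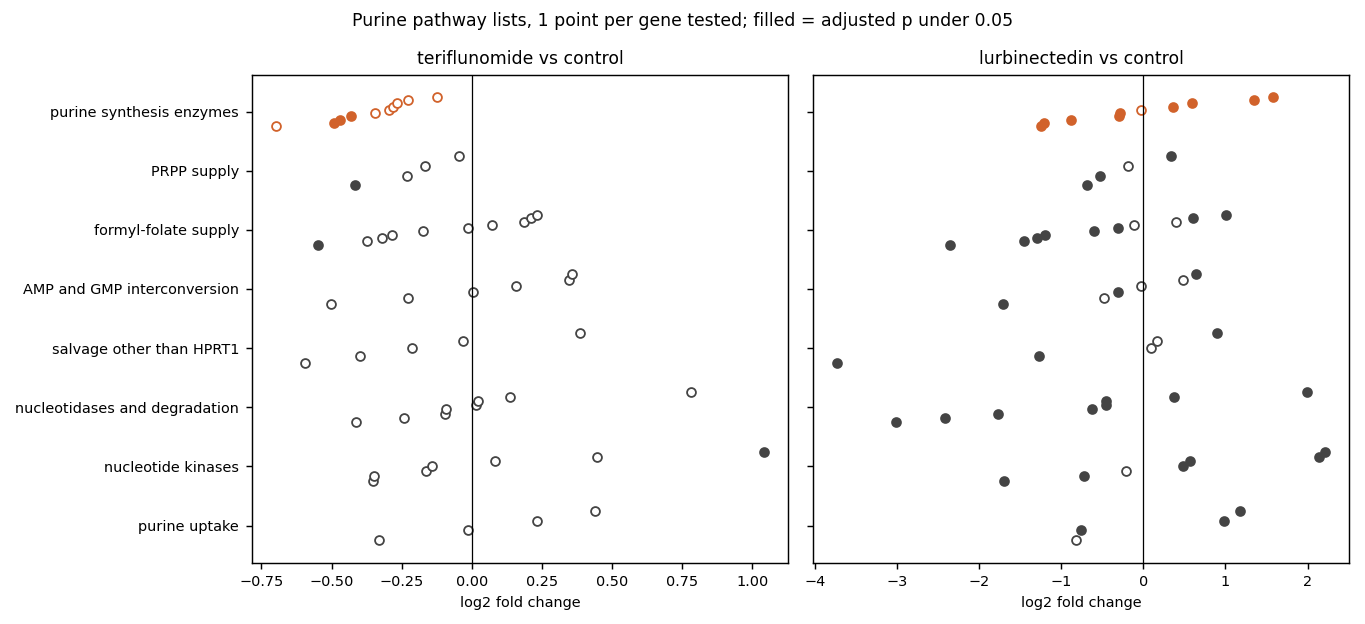
Log2 fold change (x axis) of each tested gene of the 10 enzymes (orange) and of the 7 lists around them (grey), with teriflunomide and with lurbinectedin against control; filled points have an adjusted p under 0.05 and the panels differ in scale. Genes of every list lie on both sides of 0 with lurbinectedin, from ADK at -3.73 to NME2 at 2.21.

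The genomic span of a gene went with its change under lurbinectedin across the genome, so the 10 genes were set beside genes of like span. The median log2 fold change of all nuclear genes went, over 5 span classes of equal size, from 0.69 in the shortest (up to 5.261 kb) through 0.62, 0.28 and -0.36 to -1.86 in the longest (from 82.9 kb). Span and fold change had a Spearman correlation of -0.57 across 16651 genes and -0.49 across the 10, both given as descriptions, since genes of the same libraries are not independent. IMPDH2, at 5.123 kb, was 0.66 above the median of its class. IMPDH1, at 18 kb, was 1.31 above its class, and PFAS, at 22.9 kb in the same class, was 1.49 below it. GMPS, the longest at 73.4 kb, was 0.89 below its class and HPRT1, at 60.3 kb, 0.53 below, whereas ADSL and PPAT, at 44 and 42.3 kb, were 0.95 and 0.72 above. PAICS was 0.57 below and GART and ATIC 0.33 and 0.07 above. The class of ATIC, GART, PPAT, ADSL, HPRT1 and GMPS runs from 35.9 to 82.9 kb. In it HPRT1 and GMPS, the longest of these, were below the median and the shorter genes above. The part of span within a class in these distances was not tested.

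**Figure D5:**
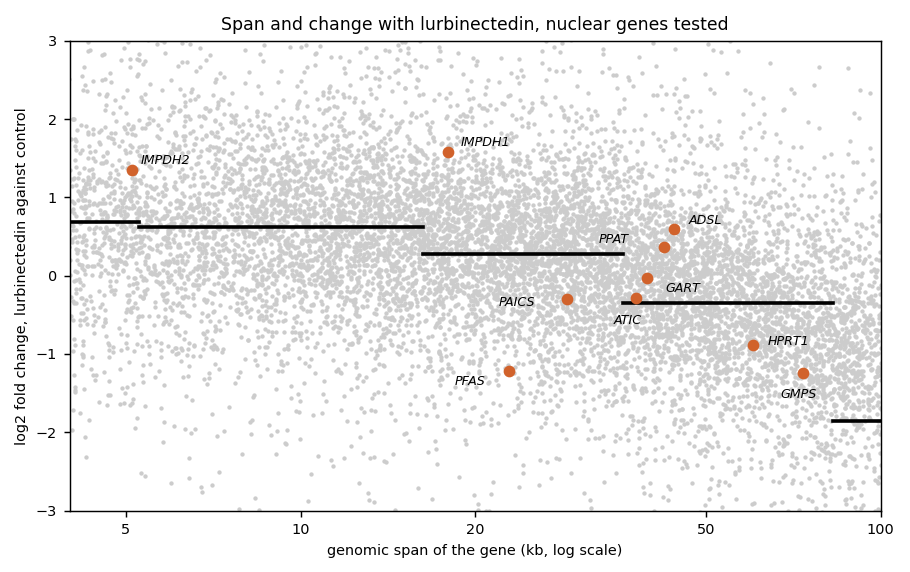
Genomic span (x axis, kb, log scale) and log2 fold change with lurbinectedin (y axis) of nuclear genes tested (grey), with the 10 enzyme genes in orange and the median of each of 5 span classes as a black line. The axes show 10783 genes and leave out 5868; IMPDH1 and PFAS lie 1.31 above and 1.49 below the same line.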

How the data were processed

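Polyadenylated RNA was sequenced from 12 SBC3 spheroid libraries, per the labels' protocols with the KAPA mRNA HyperPrep kit. The values are raw read counts per gene, deposited by the authors as 1 table per library. Per the submitters' processing notes, fastp 0.23.2, STAR 2.7.9 and featureCounts of the Subread package were used with hg38. Their settings for strand and for reads that map to several places are not given in the sources used here, so overlapping genes and close copies may mix reads. Symbols were matched for 60463 identifiers (99.7%).

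The filter was filterByExpr over the 4 groups, libraries were scaled by TMM, and edgeR 4.0.16 in R 4.3.3 fitted a robust quasi-likelihood model with 1 mean per group to all 12 libraries (biological coefficient of variation 14.5%), after tests on simulated data. Those tests covered lurbinectedin against control only, with 50 changed genes at each fold. They recovered 38% of changes of 1.5-fold, 90% at 0.5-fold and 100% at 3-fold and 0.25-fold. There were 7 false calls, with 16244 genes in the simulation. A gene that did not pass may therefore still have changed by about 1.5-fold. Recovery in the other comparisons was not tested. There were 6 contrasts, with calls at an adjusted p under 0.05 (Benjamini-Hochberg over the 16683 genes). Standard errors came from the F statistic. CPM use the TMM-scaled library size. CPM per kb uses the exon length in the tables or the median basic coding transcript of GENCODE 29. The ratio of IMPDH2 to IMPDH1 was compared between groups by exact permutation, and the other ratios were not tested. DESeq2 1.42.0 and other scalings, filters and library sets were tried as alternatives.

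The members and lists were chosen with earlier results of these data known. All 10 enzymes are named in each comparison, and MTHFD2 was named after the values were seen, outside the rule that follows. Of each list around them, the 3 called genes with the largest change with lurbinectedin are named, with every gene called with teriflunomide or between the combination and lurbinectedin, and genes starting within 1000 bases of a member on the other strand. The other such neighbour, ENSG00000272434 beside IMPDH2, had 157 counts over the 12 libraries. A gene of the kinase list and a gene of the subtype marker list are not reported here and enter no count or sum over these lists.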

Additional observations from a re-analysis of the deposited data

How the results depend on the processing

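Of 2279 log2 fold changes of single genes recomputed under the alternatives, 2159 kept their direction and call, 42 gained a call and 68 lost one. The other 10 changed sign, none of them past the test in either fit. These are values of the 10 enzymes and of genes named by rule around them, largely for their large calls with lurbinectedin. Most fits also share most libraries, so these counts do not measure stability in general. With teriflunomide, 3 of the 10 enzymes and 1002 genes were called. With the same 16683 genes tested, these counts became 1 (PAICS, with GART, ADSL and IMPDH2 lost) and 265 with library size alone, and 1 and 230 at an adjusted p under 0.01. The number of genes tested differed in the other fits. They gave 1 and 283 (of 15502 tested) with only the 2 groups fitted, and 4 (PFAS added) and 1800 (of 35577) without an expression filter. DESeq2 gave 7 and 1796. It had a p-value for 35575 genes, not all of which need have an adjusted p. Leaving out 1 library gave 0 to 6 enzymes and 216 to 1555 genes, of 17030 to 17098 tested. Between the combination and lurbinectedin, 0 calls became 2 enzymes and 558 genes (of 35575 with a p-value) with DESeq2. They became 612 genes (of 35577 tested) without a filter, and 94 genes (of 15370) with only the groups fitted. With 1 library left out they became 0 to 4 enzymes and 0 to 2067 genes. For the interaction, 43 genes became 6 with library size alone, 195 without a filter, 226 with DESeq2, 5 at an adjusted p under 0.01 and 2 to 616 with 1 library left out. With teriflunomide replicate 3 and combination replicate 2 both left out, an alternative chosen after the data were seen, 9, 6 and 1 enzymes and 2757, 3640 and 1839 genes of 16945 tested were called in these 3 comparisons. The cause of these changes was not tested.

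The sign changed for GART with lurbinectedin at a filter of 1 CPM (0.0197), and with library size alone for PPAT (-0.0514) and PRPS1 (-0.104) with the combination and for ATIC (0.0802) and IMPDH1 (0.0522) in the interaction. Without both libraries named above it changed for PPAT in the interaction (-0.0155). With 1 library left out the log2 difference ranged from -0.0469 to 0.12 for HPRT1 between combination and lurbinectedin, from -0.0303 to 0.14 for PPAT and -0.28 to 0.0722 for IMPDH1 in the interaction, and from -0.12 to 0.0638 for the ratio of IMPDH2 to IMPDH1 between combination and teriflunomide.

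The groups share replicate numbers, but same-numbered libraries did not deviate together (18 correlations from -0.40 to 0.14, 1 over 0.1). With the replicate number as a block, 2 enzymes and 415 genes were called with teriflunomide and 8 genes in the interaction. In that fit the adjusted p was 0.0592 for IMPDH2, 0.0888 for PRPS2 and 0.0537 for MTHFD1L with teriflunomide, while APRT and GMPR2 with lurbinectedin had 0.0502 and 0.0599, all 5 calls being lost. The other comparisons kept 9, 9, 0 and 8 enzymes called.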
